A study of Gallus gallus with 12 samples.

Results

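The E5.5 Müllerian duct of the chicken embryo was compared with the anterior urogenital tissue of E4.5 embryos (E4.5-Ant), in which the duct is first specified. The libraries were chosen by the tissue in their column names, which gave 3 libraries of each tissue, 6 of the 12 in the series, and all 24121 genes counted in them were members. An E4.5-Ant library was made from 5 pooled HH25 embryos, a stage named after Hamburger and Hamilton. It held the front part of the paired mesonephric kidneys, some mesentery of the midline and the coelomic epithelium that folds in to form the duct. An E5.5 library was made from 3 pooled HH28 embryos and held both ducts freed from the mesonephros, with surface epithelium, mesenchyme and the inner Müllerian epithelium together. All embryos were Hy-Line Brown chickens, males and females were not separated, and no treatment is named. The posterior E4.5 tissue (E4.5-Post) and the E6.5 duct, with 3 libraries each, were not compared in the test. They entered its filter on low counts, its scaling of libraries and its estimate of the spread between libraries. The E5.5 duct and E4.5-Ant differ in age, in what was dissected and in the share of duct cells, and these cannot be told apart here. In such bulk samples, fewer cells of a type and less RNA per cell cannot be told apart either.

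The Müllerian duct is the embryonic forerunner of the oviduct in birds and of the oviducts, uterus and upper vagina in mammals. It starts as a thickening of the coelomic epithelium at the front of the mesonephros, sinks inwards as a tube and then grows towards the cloaca next to the Wolffian duct, with mesenchyme gathering around it. In mouse, the transcription factors LHX1 and PAX2 are needed in the tube itself, WNT4 in the mesenchyme and WNT9B in the Wolffian duct, and HOX genes of the posterior groups later mark successive regions along its length.

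Library depth ranged from 24235353 to 31373783 counts on genes in the 12 libraries. Library E4.5-Ant 2 stood apart, with 42.1% of its counts on ribosomal RNA genes against 0.199 to 1.95% in the 11 others. It lay 57.1 to 58.5 from the other E4.5-Ant libraries, as the Euclidean distance over log2(CPM + 1) of the tested genes, while those lay 23.7 apart. It was therefore left out of the main test and its value is given in brackets. Levels are in CPM, counts per 1000000 counts on genes other than those of ribosomal RNA, so they may be compared between libraries but not between genes of unequal length. They are given for E4.5-Ant libraries 1 and 3, then for library 2 in brackets, then for E5.5 libraries 1, 2 and 3. Fold changes are E5.5 over E4.5-Ant on the log2 scale, ± SE, from edgeR's quasi-likelihood test on 11 libraries, with the false discovery rate (edgeR FDR) taken over all 16603 genes tested. A gene rose or fell where its edgeR FDR was at most 0.05 and its log2 fold change at least 0.585 in size, which is 1.5-fold. The p-values measure the spread between pools of embryos. The E5.5 libraries lay 25.3 to 28.4 from each other, 48.2 to 62.5 from E4.5-Ant libraries 1 and 3, and 57.4 to 71.2 from the E4.5-Post libraries. The last range bears on one E5.5 sample, whose cell type label names posterior mesonephric kidney while its title and tissue label name E5.5 duct, and no E5.5 library lay near E4.5-Post.

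Of the 16603 genes tested, 2161 changed (13%), 1295 upwards (7.8%) and 866 downwards (5.22%). Counts in the lists below are to be read beside these shares, and a count close to them is no result about its list. With library E4.5-Ant 2 included, 12.8% of 16382 genes changed, 7.19% upwards and 5.59% downwards, and 1789 genes were called in both fits, with 0 in opposite directions. The median log2 fold change of all tested genes was −0.0004. More than 4-fold changes were found for 158 genes that rose and 118 that fell, and 46 genes that rose were at or under 3 counts in both E4.5-Ant libraries of the fit. For 236 of the 2161 genes (10.9%), levels did not overlap in the 5 E4.5-Ant and E5.5 libraries of the fit but did once library E4.5-Ant 2 was added. Changed genes that already overlapped in those 5 libraries are not in this count.

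Genes were ranked by size of change only if their levels did not overlap in the 5 E4.5-Ant and E5.5 libraries of the fit. Of all tested genes, 56.0% did not overlap in these 5 libraries and 35.9% did not in all 6. Most genes named below were picked for large changes, so a lack of overlap stated for them is no separate support. Among genes with a symbol other than a LOC number, a mean of at least 5 CPM in the E5.5 duct and no overlap, the 12 with the largest rises were 2 DMRT genes, HOXC8, HOXC9, HOXD11, the antisense transcript HOXA10-AS and 6 genes of other kinds. Among the last, RHCG, an ammonium transporter of collecting ducts and other epithelia, had 5.30 and 6.87 CPM in E4.5-Ant (4.97) and 60.1, 48.9 and 71.2 CPM in E5.5, a log2 fold change of 3.33 ± 0.169, edgeR FDR 1.22e-08. AVPR2, the vasopressin receptor that controls water uptake in the mammalian kidney, had 0.838 and 1.45 CPM in E4.5-Ant (0.994) and 14.3, 18.3 and 17.7 CPM in E5.5, a log2 fold change of 3.92 ± 0.264, edgeR FDR 9.93e-08. LVRN, a membrane aminopeptidase first described in human trophoblast, reached 241, 233 and 302 CPM in the E5.5 libraries from 36.7 and 29.6 CPM in E4.5-Ant libraries 1 and 3 (27.9 in library 2). The E5.5 libraries lay above all 3 E4.5-Ant libraries for these and for the other 3 genes, PIP5K1B, a kinase that makes the membrane lipid PIP2, SLC17A8, a vesicular glutamate transporter, and RNP. Their log2 fold changes were 2.97 ± 0.212 for PIP5K1B, 2.93 ± 0.261 for SLC17A8 and 4.32 ± 0.302 for RNP, the last 5.11 without library E4.5-Ant 3.

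The 12 largest falls under the same limits, with the mean taken in E4.5-Ant, included genes of smooth muscle. ACTG2, the gamma actin of visceral smooth muscle, had 122.7 and 86.0 CPM in E4.5-Ant (148) and 8.60, 10.2 and 12.7 CPM in E5.5. TAGLN, which binds smooth muscle actin, had 110.1 and 78.5 CPM in E4.5-Ant (102) and 11.03, 9.51 and 11.6 CPM in E5.5. Their log2 fold changes were −3.29 ± 0.175 and −3.12 ± 0.139. Both were chosen for no overlap in the 5 libraries of the fit, and library E4.5-Ant 2 also lay above the E5.5 libraries for both. PTPRQ, a receptor-type phosphatase, fell from 647 and 529 CPM in E4.5-Ant libraries 1 and 3 to 86.8, 62.2 and 47.8 CPM, and the serotonin receptor HTR4 had a log2 fold change of −3.20 ± 0.142. LECT2, a secreted protein that the liver makes, had 5.55 and 6.67 CPM in E4.5-Ant (7.02) and 0.160, 0.101 and 0.289 CPM in E5.5, and FDX1L, a mitochondrial iron-sulphur protein, had 8.13 and 4.10 CPM in E4.5-Ant (10.2) and 0.128, 0.0674 and 0.217 CPM in E5.5, with log2 fold changes of −5.02 ± 0.366 and −5.44 ± 0.452. Without library E4.5-Ant 1 the fold change of FDX1L was −4.84. SCGN, CNTNAP4 and SPIK5 fell by 3.36, 3.15 and 3.10 on the log2 scale. The fall of ACAN, the aggrecan of cartilage, rested on library E4.5-Ant 3, at 13 CPM against 1.15 in library 1 and 4.21 in library 2, and without library 3 its log2 fold change of −3.74 became −1.16 and was not called, and without library 1 it was −4.63.

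**Figure D1:**
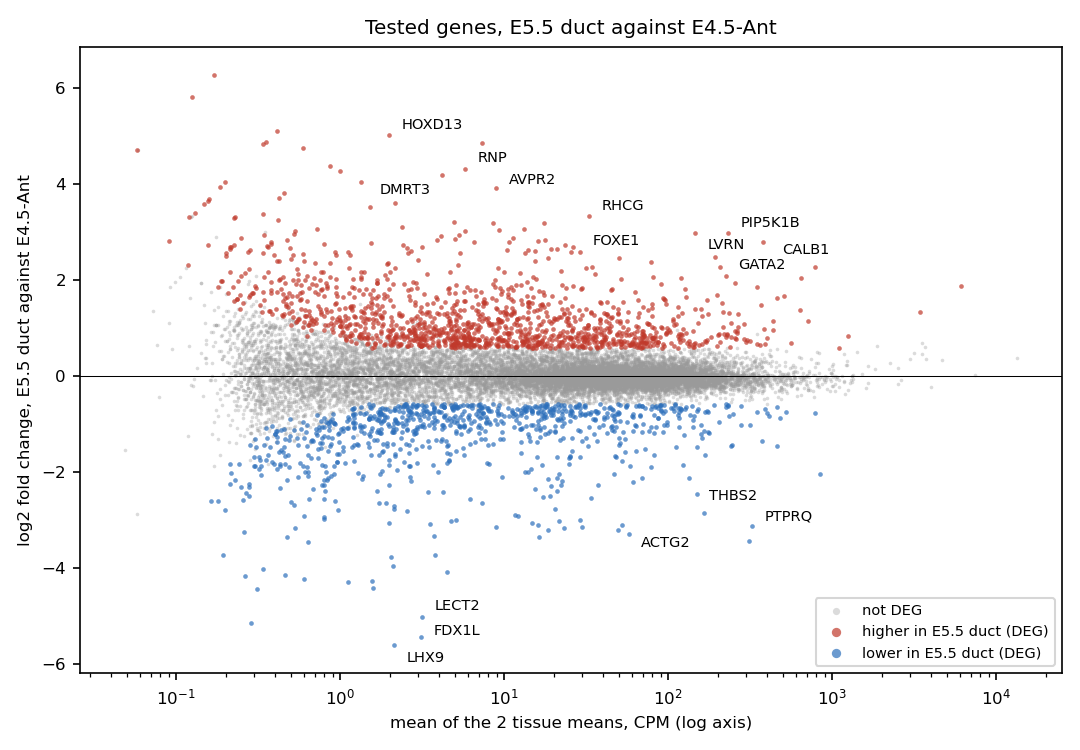
Each point is 1 of the 16603 tested genes, with the mean of the 2 tissue means in CPM on a log axis and the log2 fold change of the E5.5 duct over E4.5-Ant (libraries 1 and 3) on the other axis. The 1295 genes that rose are red, the 866 that fell are blue and the rest grey, and the named genes are the largest changes together with members of the lists described in the text.

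Genes with a known part in Müllerian duct formation were called upwards or not at all, and LHX1 and PAX2, which act at its first step, were not called. Of 35 such genes, 31 were tested and 14 rose, 0 fell and 17 were not called, with a median log2 fold change of 0.50 against −0.0004 over all genes. At an unadjusted edgeR p under 0.05, 3 were lower. GATA2, a zinc finger factor of urogenital mesenchyme (chromosome 12, 9596109 to 9612566, GRCg6a), had 79.6 and 93.9 CPM in E4.5-Ant (72.1) and 336, 358 and 393 CPM in E5.5, a log2 fold change of 2.09 ± 0.0951, edgeR FDR 5.21e-09. EMX2, a homeobox gene without which mice form no Müllerian duct, had 71.2 and 73.3 CPM in E4.5-Ant (49.9) and 159, 136 and 153 CPM in E5.5, a log2 fold change of 1.07 ± 0.0668, edgeR FDR 4.79e-08. WNT9B, the Wolffian duct ligand that Müllerian growth depends on in mouse, had 45.5 and 48.8 CPM in E4.5-Ant (36.1) and 135, 134 and 152 CPM in E5.5, a log2 fold change of 1.601 ± 0.0917, edgeR FDR 2.37e-08. The E5.5 libraries lay above all 3 E4.5-Ant libraries for each of these genes. WNT4, the ligand that the mesenchymal step requires, had 7.05 and 11.9 CPM in E4.5-Ant (5.55) and 28.5, 26.2 and 33.8 CPM in E5.5, a log2 fold change of 1.67 ± 0.160, edgeR FDR 2.56e-06. Receptors of later hormone action rose too, namely AMHR2, the receptor of anti-Müllerian hormone, with 32.7 and 36.5 CPM in E4.5-Ant (31.6) and 61.2, 54.0 and 58.8 CPM in E5.5, a log2 fold change of 0.77 ± 0.0743, edgeR FDR 2.70e-06. ESR1, the oestrogen receptor, and PGR, the progesterone receptor, had log2 fold changes of 1.23 ± 0.106 and 1.19 ± 0.115, with PGR at 5.58 and 5.80 CPM in E4.5-Ant libraries 1 and 3 and 12.3, 13.4 and 12.6 CPM in the E5.5 libraries. The epithelial ligand WNT7A had a log2 fold change of 1.71 ± 0.192.

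Both genes of the first step were well above the floor of 3 counts in E4.5-Ant. LHX1 (chromosome 19, 8536207 to 8540685) had 74.3 and 86.2 CPM in E4.5-Ant (62.3) and 101, 107 and 102 CPM in E5.5, a log2 fold change of 0.39 ± 0.0861, edgeR FDR 0.00339, which lay under the fold limit although the libraries did not overlap. PAX2 had 202 and 234 CPM in E4.5-Ant (165) and 219.6, 271 and 248 CPM in E5.5, with a log2 fold change of 0.20 ± 0.0859, edgeR FDR 0.0902, and was not called. Both were higher in E4.5-Post, kidney without duct, LHX1 at 154, 185 and 158 CPM and PAX2 at 356, 374 and 360 CPM. The part of kidney cells in the values of these 2 genes was not tested, so their level within duct cells is not known. Also not called were DACH1 (log2 fold change 0.50, called without library E5.5-1 at 0.66) and DACH2 (0.26), which the mouse duct needs jointly, the WNT effector CTNNB1 (−0.16), and the BMP and anti-Müllerian hormone type I receptors BMPR1A (−0.10) and ACVR1 (−0.07). WNT5A, a ligand of the mesenchyme, had a log2 fold change of 0.57 and was called without library E4.5-Ant 1 (0.60) or E5.5-3 (0.61). The call of TP63, a factor of stratified epithelia, with 0.64, was lost without library E5.5-3 (0.56) and with library E4.5-Ant 2 included (0.57). BMPR1B, another type I receptor, had 24.9 and 27.0 CPM in E4.5-Ant (104) and 15.4, 21.0 and 16.9 CPM in E5.5 and a log2 fold change of −0.52, and it fell without library E5.5-2 (−0.68) or with library E4.5-Ant 2 included (−1.56), which makes 13 genes higher and 1 lower of the 31 with all 12 libraries. FOXL2 and AMH had too few counts to be tested. Some of these genes are among those the study chose on these samples, which gave 7 rises and 5 falls of 13 tested (6 and 6 with all 12 libraries), so their direction is not independent evidence.

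The posterior HOX genes, which give cells their position along the body axis, rose as a group. All 13 of the 13 tested genes of HOX groups 9 to 13 rose, with a median log2 fold change of 2.88 (2.85 with 2 genes at the floor set to their bounds), and HOXB13, HOXC12 and HOXC13 had too few counts to be tested. Their summed level was 15.8 and 84.0 CPM in E4.5-Ant (28.7) and 195, 207 and 233 CPM in E5.5. In E4.5-Post, kidney of the same age as E4.5-Ant but without duct, it was 150, 156 and 162 CPM. E4.5-Ant held only the front part of the urogenital tissue and E5.5 the whole duct. The part of this difference in the HOX values was not tested. All 13 genes were higher in every E5.5 library than in every E4.5-Ant library, without overlap. Of all tested genes, 56.0% did not overlap in the 5 libraries of the fit, 24.8% upwards and 31.2% downwards, and 35.9% did not in all 6 libraries, 18.5% upwards and 17.4% downwards. The E4.5-Ant libraries differed among themselves, with all 13 genes higher in library 3 than in library 1 and 12 of them between these or equal to one in library 2. HOXA9 (chromosome 2, 32643254 to 32645922), which marks the future oviduct in mouse, had 2.90 and 13.7 CPM in E4.5-Ant (5.91) and 35.2, 39.4 and 33.8 CPM in E5.5, a log2 fold change of 2.19 ± 0.344, edgeR FDR 2.48e-04. HOXA10, which marks the future uterus in mouse, had 0.174 and 12.01 CPM in E4.5-Ant (1.17) and 30.99, 32.9 and 43.0 CPM in E5.5, and HOXA11, the gene next to it in the cluster, had 0 and 2.61 CPM in E4.5-Ant (0.0585) and 5.98, 8.80 and 11.3 CPM in E5.5, with log2 fold changes of 2.64 ± 0.591 and 2.85 ± 0.598. Library E4.5-Ant 3 was the highest E4.5-Ant library for each of the 3 genes and still lay under the E5.5 libraries. Without library E4.5-Ant 1 the log2 fold changes of HOXA9, HOXA10 and HOXA11 were 1.44, 1.602 and 1.77, all called, and without library 3 those of HOXA9 and HOXA10 were 3.66 and 7.65, while HOXA11 then had 0 counts left in E4.5-Ant and no fold is given.

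In the HOXD cluster the most posterior genes were lower in E4.5-Ant libraries 1 and 2 than in library 3 of that tissue. HOXD13 had 0 and 0.248 CPM in E4.5-Ant (0) and 2.14, 3.001 and 6.35 CPM in E5.5, HOXD12 had 0 and 0.704 CPM in E4.5-Ant (0.0585) and 2.40, 3.51 and 5.99 CPM in E5.5, and HOXD11 had 0.0698 and 1.99 CPM in E4.5-Ant (0.0585) and 5.25, 8.16 and 13.2 CPM in E5.5. Library E5.5-3 was the highest and library E5.5-1 the lowest for all 3 genes. Their log2 fold changes were 5.02 ± 0.749, 3.60 ± 0.616 and 3.21 ± 0.575, and 3.94, 2.51 and 2.18 without library E4.5-Ant 1, while without library 3 the one left held at most 2 counts on each gene and no fold is given. Both HOXA13 and HOXC11 were at or under 3 counts in E4.5-Ant libraries 1 and 3, which makes HOXA13 at least 9.21-fold and HOXC11 at least 6.85-fold higher at the floor of 3 counts in each library, and HOXC11 was not called without library E4.5-Ant 1. The other members, given so that all 13 stand here, had log2 fold changes of 3.05 ± 0.528 for HOXC9, 2.15 ± 0.615 for HOXC10, 2.88 ± 0.453 for HOXD10, 1.36 ± 0.291 for HOXB9 and 1.29 ± 0.163 for HOXD9, with lowest values of 1.99, 1.11, 1.94, 0.71 and 0.96 among the fits that left out a library, each without library E4.5-Ant 1. The genes of groups 1 to 8 changed less, with 6 of 19 higher, 2 lower and a median of 0.32, and 4 higher without library E4.5-Ant 1. The largest change there was that of HOXC8, at 2.37 and 4.76 CPM in E4.5-Ant (5.204) and 34.8, 34.3 and 24.98 CPM in E5.5, a log2 fold change of 3.19 ± 0.211, edgeR FDR 7.96e-08. HOXC6 had 1.49 ± 0.127, while HOXC4 at −1.05 ± 0.177 and HOXC5 at −0.85 ± 0.167 fell.

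**Figure D2:**
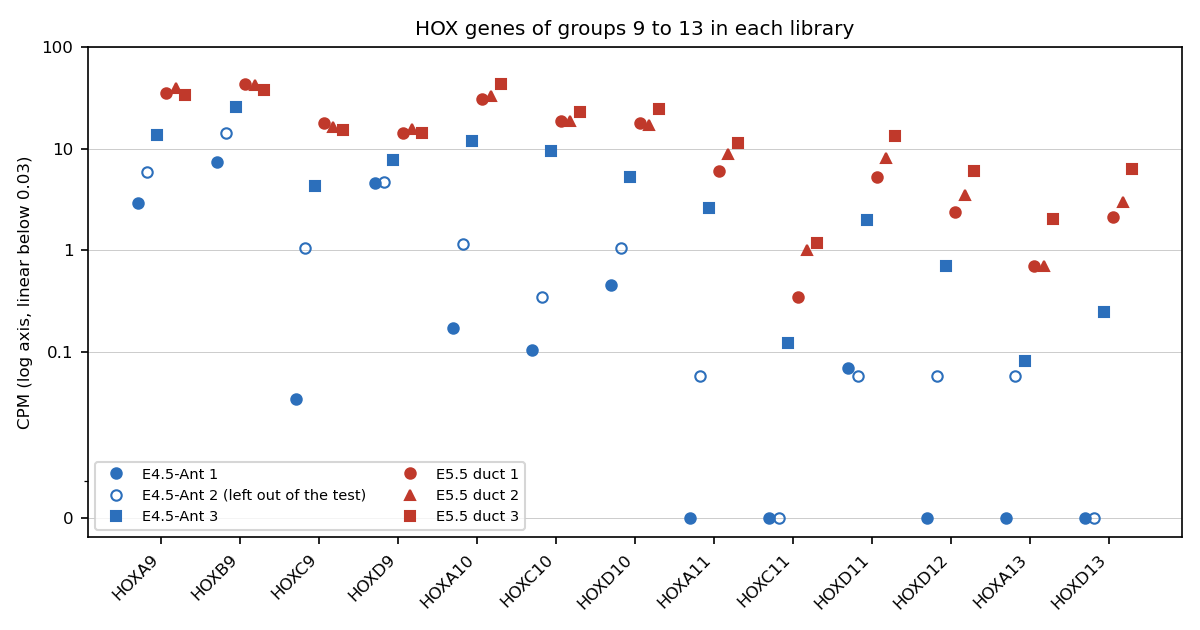
Levels of the 13 tested posterior HOX genes in CPM, on an axis that is logarithmic above 0.03 CPM and linear below it, in the 3 E4.5-Ant libraries (library 2 as an open circle) and the 3 E5.5 libraries. All 13 genes lie higher in every E5.5 library than in any E4.5-Ant library, and the E4.5-Ant libraries spread more widely than the E5.5 libraries, with library 3 above library 1 for each gene.

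All 3 DMRT genes tested, which code for factors with a DM DNA-binding domain, rose. DMRT1 (chromosome Z, 25949702 to 25952032), the Z-linked gene on which testis formation depends in the chicken, had 1.08 and 1.53 CPM in E4.5-Ant (1.05) and 8.16, 9.84 and 12.9 CPM in E5.5, a log2 fold change of 3.01 ± 0.232, edgeR FDR 3.62e-07. DMRT3, its neighbour (chromosome Z, 26009162 to 26016878), had 0.314 and 0.580 CPM in E4.5-Ant (0.234) and 6.59, 6.27 and 10.8 CPM in E5.5, a log2 fold change of 4.18 ± 0.327, edgeR FDR 4.00e-07. DMRT2 was low in both tissues, at 1.08, 1.04 (1.29) and 1.599, 2.36, 4.01 CPM in E4.5-Ant libraries 1, 3 (2) and E5.5 libraries 1 to 3, and its log2 fold change of 1.33 was not called without library E4.5-Ant 1 (1.38) or 3 (1.29). No DMRT gene overlapped between the tissues in the 6 libraries, beside 35.9% of all tested genes without overlap. Of 759 Z-linked genes tested, 107 rose (14.1%) and 28 fell (3.69%), with a median log2 fold change of 0.07, beside 7.8% and 5.22% of all genes. W-linked genes, 40 of them tested, summed to 1941 and 1486 CPM in E4.5-Ant (2216) and 1911, 1450 and 1482 CPM in E5.5. The pools thus overlapped in the level of genes from the female chromosome. Z-linked genes summed to 38575 and 41183 CPM in E4.5-Ant (43268) and 44479, 47739 and 50644 CPM in E5.5, without overlap. The share of males and females in the pools is not known, and its part in the Z-linked values was not tested.

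Several WNT ligands and 10 of 19 genes that act in or report canonical WNT signalling rose in the E5.5 duct, while most receptors and CTNNB1, the beta-catenin gene, were not called. WNTs are secreted ligands that bind Frizzled receptors and LRP co-receptors and so stabilise beta-catenin. Of 15 ligands, 7 rose and 2 fell, with a median log2 fold change of 0.58, and they summed to 199 and 214 CPM in E4.5-Ant (191) and 370.5, 375 and 406 CPM in E5.5. WNT16 had 3.91 and 3.23 CPM in E4.5-Ant (2.75) and 12.5, 12.8 and 17.04 CPM in E5.5, a log2 fold change of 2.0 ± 0.191, edgeR FDR 2.52e-06, and WNT7B, an epithelial ligand, had 1.79 ± 0.326. WNT2B had 7.15 and 7.12 CPM in E4.5-Ant (6.84) and 2.02, 1.72 and 2.49 CPM in E5.5 and WNT2 had 4.502 and 4.76 CPM in E4.5-Ant (3.98) and 1.54, 1.11 and 1.19 CPM in E5.5, both falling, WNT2B with a log2 fold change of −1.76 ± 0.189 and WNT2 with −1.82 ± 0.180. These 4 ligands, picked for large changes, did not overlap between the tissues in the 6 libraries, beside 35.9% of all tested genes. Among 18 receptors and co-receptors 3 rose and 1 fell (median 0.02). FZD10 had 6.49 and 6.54 CPM in E4.5-Ant (6.02) and 16.02, 15.3 and 17.1 CPM in E5.5, and FZD4 had 378 and 372 CPM in E4.5-Ant (301) and 195, 188 and 161 CPM in E5.5, with log2 fold changes of 1.33 ± 0.103 and −1.02 ± 0.0922. LGR5, the R-spondin receptor known from stem cells of the gut, had 0.87 ± 0.0890, and FZD3, a Frizzled of planar polarity, had 0.87 ± 0.0835.

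The 19 genes that act in or report the canonical pathway had a median log2 fold change of 0.76, and 8 of them rose without library E4.5-Ant 1. APCDD1, a target that also restrains the pathway at the membrane, had 72.0 and 71.8 CPM in E4.5-Ant (52.7) and 309.6, 300.4 and 419.7 CPM in E5.5, a log2 fold change of 2.28 ± 0.120, edgeR FDR 1.49e-08. AXIN2, the most widely used reporter of canonical signalling, had 24.8 and 27.6 CPM in E4.5-Ant (25.2) and 54.5, 54.8 and 61.9 CPM in E5.5, a log2 fold change of 1.15 ± 0.0766, edgeR FDR 8.58e-08. RSPO3, an R-spondin that strengthens WNT signals, rose by 1.21 on the log2 scale. The E5.5 libraries lay above all 3 E4.5-Ant libraries for each of these. SP5, a transcription factor target, had 1.27 and was not called without library E4.5-Ant 1 (0.88). Secreted antagonists rose in 3 of 11 cases, SOSTDC1 with 1.52 ± 0.164, WIF1 with 1.18 ± 0.189 and NOTUM, which removes the lipid that WNTs need, with 1.08 ± 0.111. Of 13 planar polarity genes only DVL1, a cytoplasmic relay, was called, with 0.64 ± 0.0554.

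**Figure D3:**
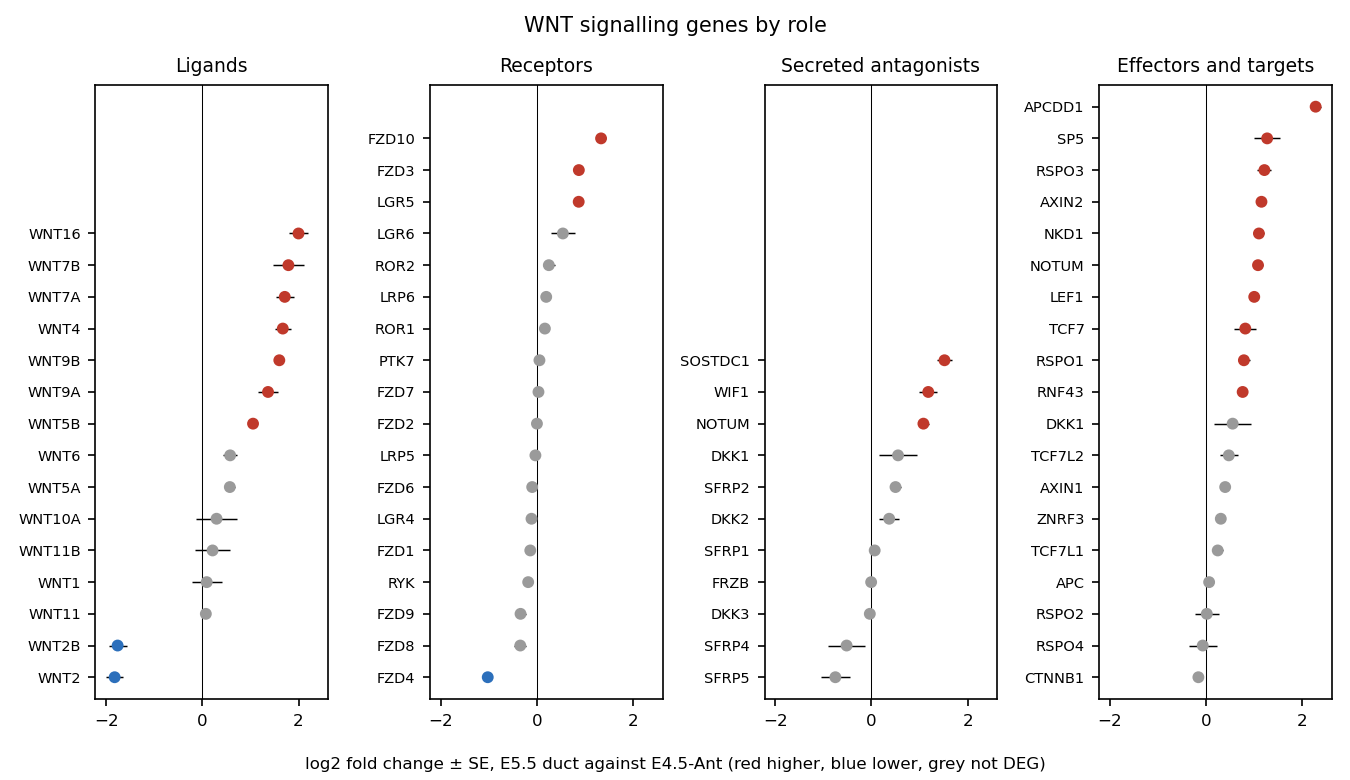
Log2 fold changes (E5.5 over E4.5-Ant) with their SE for the WNT ligands, receptors, secreted antagonists, and effectors and targets in 4 panels, red where a gene rose, blue where it fell and grey where it was not called. Ligands and effectors lie mostly to the right, from WNT2 at −1.82 to APCDD1 at 2.28, and most receptors lie near 0; NOTUM and DKK1 occur in 2 panels.

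The BMP and TGF-beta family, secreted dimers that act through SMAD proteins, was mixed. Of 18 ligands 3 rose and 4 fell (median log2 fold change 0.16). BMP3, a member that opposes other BMPs in bone, had 4.29 and 5.84 CPM in E4.5-Ant (3.62) and 29.1, 26.7 and 21.6 CPM in E5.5, a log2 fold change of 2.39 ± 0.155, edgeR FDR 6.57e-08. BMP4 had 54.3 and 45.01 CPM in E4.5-Ant (39.1) and 19.2, 20.2 and 24.4 CPM in E5.5 and TGFB3 had 209.9 and 177 CPM in E4.5-Ant (199.7) and 97.0, 84.2 and 93.8 CPM in E5.5, log2 fold changes of −1.20 ± 0.102 and −1.05 ± 0.0730. None of the 3 ligands, picked for large changes, overlapped between the tissues in the 6 libraries, beside 35.9% of all tested genes without overlap. GDF9, an oocyte ligand, had 1.66 but was not called without library E4.5-Ant 3 (1.41). Receptors and SMADs gave 1 rise, AMHR2, and 1 fall, SMAD4 at −0.87 ± 0.0961, of 19. That is 5.26% each way, beside 7.8% and 5.22% of all genes. Antagonists gave 5 rises and 2 falls of 14, among them FSTL5 at 1.87 ± 0.145 and CHRDL1 at 1.90 ± 0.251. Of 11 genes that BMPs induce in other tissues 2 rose and 4 fell (2 without library E4.5-Ant 3 or E5.5-2). MSX2, which is active in mouse Müllerian epithelium, had 1.95 and 4.02 CPM in E4.5-Ant (1.81) and 16.3, 14.8 and 22.2 CPM in E5.5, a log2 fold change of 2.62 ± 0.228, whereas MSX1 had −1.41 and lost its call without library E4.5-Ant 3 (−0.95) or E5.5-2 (−1.15) and with all 12 libraries (−1.15).

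FGF and hedgehog signals gave a few large changes, and several genes of the Notch pathway fell. Of 16 FGF ligands 4 rose and 2 fell. FGF10, a mesenchymal ligand for epithelial growth, had 2.76 and 5.26 CPM in E4.5-Ant (4.68) and 18.9, 24.2 and 25.3 CPM in E5.5, and FGF2 had 8.03 and 7.29 CPM in E4.5-Ant (7.78) and 2.40, 2.73 and 2.45 CPM in E5.5, with log2 fold changes of 2.55 ± 0.242 and −1.57 ± 0.138. FGF18 rose by 1.42 on the log2 scale. The fall of FGF8 (−1.45) was not called without library E4.5-Ant 3 (−0.45) or E5.5-3 (−1.24) or with all 12 libraries (−1.23), and was −2.07 without library E4.5-Ant 1. Among 18 receptors and feedback genes 4 fell, SPRY4 (−1.06 ± 0.141), DUSP5 (−0.84 ± 0.151) and FGFRL1 (−0.81 ± 0.149) with the largest changes, and 1 rose, ETV4 (0.95 ± 0.0979). In the hedgehog pathway 3 of 16 rose and 1 fell. HHIP (0.81 ± 0.133), which restrains the signal, rose. The call of SHH (1.03) was lost without library E4.5-Ant 1 (0.53) or E5.5-3 (0.51), its fold change was 1.73 without library E4.5-Ant 3, and that of FOXF1 (−1.33), a mesenchymal target, was lost without E4.5-Ant 3 (−1.02), E5.5-1 (−1.15) or E5.5-2 (−1.06) and it was −1.95 without E5.5-3.

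Notch receptors are cleaved when a ligand on a neighbouring cell binds them, and genes of the HES and HEY families are then switched on. Of 18 genes of this pathway 8 fell (7 without library E4.5-Ant 1), with a median log2 fold change of −0.53. HEYL had 40.4 and 38.0 CPM in E4.5-Ant (45.2) and 10.8, 11.1 and 10.2 CPM in E5.5, a log2 fold change of −1.84 ± 0.115, edgeR FDR 4.91e-08. HEY2 had 15.7 and 9.85 CPM in E4.5-Ant (13.04) and 2.05, 2.46 and 1.44 CPM in E5.5, a log2 fold change of −2.66 ± 0.239, edgeR FDR 1.39e-06. The ligand JAG1 had 129 and 138 CPM in E4.5-Ant (163) and 66.2, 69.5 and 58.4 CPM in E5.5, a log2 fold change of −1.02 ± 0.0916. The E4.5-Ant libraries were the higher ones throughout, and the tissues did not overlap in the 6 libraries, beside 35.9% of all tested genes. HES5 and HEY1 had log2 fold changes of −1.68 ± 0.228 and −1.07 ± 0.133. At an unadjusted edgeR p under 0.05, 3 genes of the list were higher. HEY genes are also used by endothelium and smooth muscle, whose marker lists had medians of −0.58 and −0.83 in the same comparison, and the part of those cells in the Notch values was not tested. Of 17 retinoic acid genes 1 rose (5.88%, beside 7.8% of all genes). This was ALDH1A1, a synthesising enzyme, with 182 and 171 CPM in E4.5-Ant (170.1) and 322, 306 and 371 CPM in E5.5, a log2 fold change of 0.94 ± 0.0913.

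Of 28 steroid and nuclear receptors 6 rose and 1 fell (21.4% and 3.57%, beside 7.8% and 5.22% of all genes). NR5A1, steroidogenic factor 1 of the gonad and adrenal, had 5.2 and 2.69 CPM in E4.5-Ant (4.03) and 0.224, 0.270 and 0.253 CPM in E5.5, a log2 fold change of −3.96 ± 0.368, edgeR FDR 1.91e-06. NR0B1, the DAX1 of mammals, a receptor without a DNA-binding domain of the usual kind, had 1.47 and 2.65 CPM in E4.5-Ant (1.34) and 5.44, 6.10 and 9.85 CPM in E5.5, a log2 fold change of 1.83 ± 0.259. Both, picked for large changes, separated the tissues in all 6 libraries, beside 35.9% of all tested genes. The rise of RORB (1.42) was not called without library E4.5-Ant 1 (1.08) or with all 12 libraries (0.58). Among 24 genes of PDGF, VEGF, HGF and EGF signalling 6 rose and 4 fell (2 without library E4.5-Ant 1 or E5.5-3). HGF, a mesenchymal ligand that drives epithelial movement and branching, had 21.0 and 20 CPM in E4.5-Ant (23.9) and 68.3, 68.1 and 71.6 CPM in E5.5, a log2 fold change of 1.78 ± 0.0801, edgeR FDR 5.21e-09. VEGFD had 23.2 and 31.8 CPM in E4.5-Ant (25.2) and 77.4, 76.9 and 79.9 CPM in E5.5, and VEGFA, the main signal for vessel growth, had 76.0 and 72.7 CPM in E4.5-Ant (62.7) and 32.8, 32.5 and 31.7 CPM in E5.5, log2 fold changes of 1.53 ± 0.104 and −1.18 ± 0.0710. KITLG, the ligand of KIT, rose by 1.31 on the log2 scale. In the insulin-like growth factor system 2 of 14 rose and 1 fell, IGFBP5 (0.94 ± 0.173) upwards and IGFBP7 (−0.81 ± 0.0855) downwards. These are 14.3% and 7.14%, beside 7.8% and 5.22% of all genes. The call of IGF1 (1.36) was lost without E4.5-Ant 1 (1.35), E4.5-Ant 3 (1.38), E5.5-2 (0.94) or E5.5-3 (1.41) and with all 12 libraries (1.05).

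Factors of cell position and tissue type changed in both directions. Shares upwards and downwards were 10% and 30% for forkhead and for LIM homeobox genes and 7.69% and 38.5% for T-box genes. Those of all genes were 7.8% and 5.22%. FOXE1, a forkhead gene known from thyroid development and one the study followed in these samples, had 7.99 and 8.86 CPM in E4.5-Ant (4.68) and 42.3, 47.7 and 59.7 CPM in E5.5, a log2 fold change of 2.59 ± 0.127, edgeR FDR 9.15e-09. Of the 30 forkhead genes 3 rose (1 without library E4.5-Ant 1 or E5.5-2) and 9 fell, the latter including FOXF2 (−2.40 ± 0.456, −3.29 without library E5.5-3), a factor of gut mesenchyme, and FOXE3, which was at the floor of 3 counts in every E5.5 library and at least 3.85-fold lower. FOXQ1, at the floor in E4.5-Ant libraries 1 and 3, was at least 3.46-fold higher, a call lost without library E4.5-Ant 1, E4.5-Ant 3 or E5.5-2. Among 10 LIM homeobox genes, the family of LHX1, 1 rose and 3 fell. LHX9, a gene of the early gonad, had 2.79 and 5.55 CPM in E4.5-Ant (8.77) and 0.0640, 0.169 and 0 CPM in E5.5, a log2 fold change of −5.60 ± 0.724 (−6.74 without library E5.5-2). LMX1B, needed by podocytes, had 37.2 and 34.5 CPM in E4.5-Ant (30.3) and 6.49, 5.77 and 3.14 CPM in E5.5, a log2 fold change of −2.77 ± 0.209. The tissues did not overlap for FOXE1, LHX9 or LMX1B in the 6 libraries, beside 35.9% of all tested genes. T-box genes gave 1 rise and 5 falls of 13, and 2 falls without library E4.5-Ant 3. TBX1 had 83.0 and 80.4 CPM in E4.5-Ant (62.9) and 30.7, 29.1 and 10.6 CPM in E5.5, with library E5.5-3 the lowest, and TBX20 had −1.76 ± 0.220.

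The list of EMX, DLX, MSX, ALX and related patterning factors gave 8 rises and 4 falls of 29, with 3 rises without library E4.5-Ant 1, 5 without E5.5-1 or E5.5-2 and 1 fall without E4.5-Ant 3. MSX2 and EMX2 were given above, and HAND1, a factor of heart and splanchnic mesoderm, fell by 2.57 on the log2 scale. The fall of NKX3-2 (−2.12) rested on library E4.5-Ant 3 (−1.04 without it, not called, and −2.75 without library 1). Of 5 GATA genes GATA2 and GATA3 (0.81 ± 0.0785) rose and GATA5 fell, with 34.9 and 45.05 CPM in E4.5-Ant (39.8) and 14.3, 17.7 and 21.4 CPM in E5.5, a log2 fold change of −1.14 ± 0.144. The 13 Iroquois, MEIS and PBX genes gave 4 falls (1 without library E4.5-Ant 1 and 1 without E5.5-3), among them IRX5 with −1.34 ± 0.323 and IRX4 with −1.94 ± 0.567, the latter not called without E4.5-Ant 1 (−1.23) or E5.5-3 (−1.84). Of 14 PAX, EYA and DACH genes and their partners 1 rose, PAX7 (1.602 ± 0.268), a gene of muscle precursors. RUNX1, known from blood and epithelia, had 26.3 and 21.8 CPM in E4.5-Ant (42.3) and 44.3, 56.3 and 58.1 CPM in E5.5, a log2 fold change of 1.16 ± 0.110, and RUNX2, the bone factor, had 23.7 and 22.6 CPM in E4.5-Ant (273) and 5.31, 6.57 and 5.78 CPM in E5.5, a log2 fold change of −1.95 ± 0.137 and of −4.21 with library E4.5-Ant 2 included, which was far above the others for this gene. Of 11 factors that drive epithelial to mesenchymal transition or act with them, 1 was called, PRRX1 (0.59), and it lost the call without E4.5-Ant 1 (0.41), E5.5-1 (0.58) or E5.5-3 (0.54). SOX genes gave 1 rise and 2 falls of 13, shares of 7.69% and 15.4% beside 7.8% and 5.22% of all genes.

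Guidance signals steer growing axons and migrating cells, and slits, netrins and their receptors gave 7 rises and 1 fall of 18 (5 and 2 with all 12 libraries). NTN4, a basement membrane netrin, had 11.2 and 12.2 CPM in E4.5-Ant (13.5) and 34.7, 33.5 and 38.5 CPM in E5.5, and UNC5D, a netrin receptor, had 9.74 and 9.52 CPM in E4.5-Ant (7.48) and 26.3, 26.4 and 24.04 CPM in E5.5, with log2 fold changes of 1.63 ± 0.117 and 1.43 ± 0.0961. NTNG2 rose by 1.10 on the log2 scale, and the rise of ROBO3 (1.56) was not called without E4.5-Ant 1 (1.71), E4.5-Ant 3 (1.45) or E5.5-2 (1.06). Of 25 semaphorins, neuropilins and plexins 3 rose and 2 fell (12% and 8%, beside 7.8% and 5.22% of all genes). SEMA3D had 48.3 and 48.1 CPM in E4.5-Ant (42.6) and 106, 116 and 114 CPM in E5.5, and SEMA3G had 39.9 and 34.4 CPM in E4.5-Ant (26.7) and 9.44, 7.69 and 6.86 CPM in E5.5, log2 fold changes of 1.24 ± 0.0618 and −2.19 ± 0.136. These 4 genes, picked for large changes, did not overlap between the tissues in the 6 libraries, beside 35.9% of all tested genes. Among 17 ephrins and Eph receptors EFNB2, the ephrin of arteries, had 34.1 and 35.5 CPM in E4.5-Ant (92.4) and 8.44, 8.19 and 8.41 CPM in E5.5, a log2 fold change of −2.03 ± 0.0907 (−2.71 with all 12 libraries), and EPHA1 rose by 0.98. EPHA7 fell by 0.67 on the log2 scale, but had −1.57 with library E4.5-Ant 2 included, where it was at 369 CPM against 112 and 104 in the others. The chemokine, GDNF and neurotrophin list gave 2 rises and 2 falls of 18 (6 falls without library E5.5-1 and 5 with all 12), GDNF (0.68 ± 0.0882), BDNF (−1.37 ± 0.127), GFRA2 (−1.31 ± 0.143) and NTF3 (1.14), the last at 0.24 and not called with all 12 libraries.

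Matrix genes were called in both directions. Of 40 collagens 9 rose and 8 fell, of 29 basement membrane genes 5 rose and 6 fell, and of 22 matricellular genes 5 rose (3 with all 12 libraries) and 9 fell. COL4A3 and COL4A4, the collagen IV chains of the mature glomerular membrane, had log2 fold changes of −2.30 ± 0.125 and −2.15 ± 0.155, COL4A3 with 33.6 and 30.9 CPM in E4.5-Ant (23.9) and 6.97, 5.66 and 6.64 CPM in E5.5. SMOC1, a calcium-binding matrix protein that modulates BMP signals, had 12.8 and 18.9 CPM in E4.5-Ant (15.03) and 76.7, 85.7 and 92.7 CPM in E5.5, a log2 fold change of 2.46 ± 0.153, edgeR FDR 4.79e-08. THBS2, a thrombospondin, had 276 and 231 CPM in E4.5-Ant (413) and 47.6, 43.3 and 45.4 CPM in E5.5, a log2 fold change of −2.46 ± 0.113, edgeR FDR 5.29e-09. Neither SMOC1 nor THBS2 overlapped between the tissues in any library, beside 35.9% of all tested genes without overlap in all 6. FBLN5, an elastic fibre protein, fell to 23.6, 21.8 and 18.5 CPM in the E5.5 libraries from 107 and 94.2 CPM in E4.5-Ant libraries 1 and 3. HTRA3, a secreted protease, had 25.8 and 26.0 CPM in E4.5-Ant (25.4) and 106, 122 and 166 CPM in E5.5, a log2 fold change of 2.37 ± 0.146, and LAMA3, a laminin chain of epithelial basement membranes, had 1.29 ± 0.124. Of 27 proteoglycan genes 2 rose and 4 fell, GPC3 (−1.69 ± 0.125) among the latter. These are 7.41% and 14.8%, beside 7.8% and 5.22% of all genes. Of 27 crosslinking and remodelling enzymes 2 rose and 3 fell (5 with all 12 libraries), MMP9 at −1.80 ± 0.256, which are shares of 7.41% and 11.1%. ADAMTS proteases gave 4 rises and 3 falls of 21 (2 and 3 with all 12 libraries), ADAMTS2 at −1.45 ± 0.163.

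Epithelial genes rose in more cases than they fell. Of 47 genes of epithelial identity and junctions 16 rose and 3 fell (5 without library E5.5-1), with a median log2 fold change of 0.38. KRT14, a keratin of basal cells, had 6.28 and 3.89 CPM in E4.5-Ant (3.33) and 17.9, 13.96 and 20.8 CPM in E5.5, a log2 fold change of 1.79 ± 0.199, and KRT15 and KRT17 had 1.70 ± 0.262 and 1.29 ± 0.178. The general epithelial genes CDH1 and EPCAM had 0.01 and 0.34 and were not called. Of 15 genes of the coelomic epithelium 5 rose and 1 fell, and 2 rose without library E4.5-Ant 1 and 3 without E5.5-3. BNC1, a zinc finger factor of mesothelium, had 38.6 and 49.1 CPM in E4.5-Ant (44.7) and 116, 115 and 115 CPM in E5.5, a log2 fold change of 1.42 ± 0.108, and KRT19 rose by 1.09. BNC1 and KRT14 did not overlap between the tissues in the 6 libraries, beside 35.9% of all tested genes. The calls of UPK1B (0.98) and KRT7 (0.95) were lost without library E4.5-Ant 1 (0.73 and 0.60), and that of UPK1B also without E5.5-3 (0.49). Classical cadherins, the homophilic adhesion proteins, gave 7 rises and 3 falls of 20, CDH8 (1.31 ± 0.233) and CDH20 (1.18 ± 0.181) upwards and CDH19 (−1.17 ± 0.229) downwards, and CDH12 (1.57) was not called with all 12 libraries (0.97). Integrins gave 1 rise, ITGB6 (1.04 ± 0.137), an epithelial chain, and 4 falls of 24, ITGB3 (−0.89 ± 0.109) among them, and ITGA9 (−0.87), which was −2.08 with library E4.5-Ant 2 included. Protocadherins and their relatives gave 2 rises of 21 (5 without library E5.5-1), and adhesion G protein-coupled receptors gave 4 rises and 1 fall of 17 (2 rises without library E5.5-3 and 3 falls with all 12).

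Of the marker lists of the mesonephros, that of the glomerulus was lower in the E5.5 libraries and that of the tubule was not. Podocyte genes summed to 2747 and 2436 CPM in E4.5-Ant (2597) and 1561, 1497 and 1542 CPM in E5.5, and of 13 tested 7 fell and 1 rose (median log2 fold change −0.77). PTPRO, a phosphatase of the podocyte surface, had 319 and 262 CPM in E4.5-Ant (258) and 49.3, 37.5 and 31.9 CPM in E5.5, a log2 fold change of −2.85 ± 0.171, edgeR FDR 3.52e-08, and CLIC5 had −1.59 ± 0.175. WT1, which coelomic epithelium uses as well as podocytes, had 0.45 and was not called. MAGI2 had −1.48, and −2.10 with all 12 libraries. Mesonephric tubule genes summed to 3118 and 2946 CPM in E4.5-Ant (2072) and 3288, 3035 and 3132 CPM in E5.5, with 7 rises of 28 and a median of 0.04, and 5 were lower at an unadjusted edgeR p under 0.05 but not called. The defining endocytic receptors LRP2 (796 and 690.2 CPM in E4.5-Ant (474) and 605, 563 and 498 CPM in E5.5) and CUBN (414 and 417 CPM in E4.5-Ant (269.8) and 387, 403 and 350.0 CPM in E5.5) were not called, with log2 fold changes of −0.39 and −0.10. The summed tubule level thus overlapped between E4.5-Ant and libraries labelled as duct freed from the mesonephros, and the part of tubule cells in the other values was not tested. DAB2, an endocytic adaptor of tubule and other cells, had 280.3 and 270.2 CPM in E4.5-Ant (239) and 595, 543 and 666 CPM in E5.5, a log2 fold change of 1.15 ± 0.0826. SLC12A3, also among the 7 rises, had 30.4 and 40.7 CPM in E4.5-Ant (23.5) and 77.2, 84.5 and 69.2 CPM in E5.5. KCNJ1, another of them, had 29.4 and 27.0 CPM in E4.5-Ant (17.1) and 58.6, 50.9 and 68.9 CPM in E5.5. Their log2 fold changes were 1.15 ± 0.153 and 1.10 ± 0.124.

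Of 13 Wolffian duct genes tested 5 rose and the others were not called, with a median log2 fold change of 0.39 and a sum of 864 and 935 CPM in E4.5-Ant (865) and 1923, 2091 and 2315 CPM in E5.5. With all 12 libraries 5 rose and 2 fell, and 1 fell without library E5.5-1 or E5.5-2. CALB1, a calcium-binding protein, had 262 and 285 CPM in E4.5-Ant (232) and 1120.4, 1276 and 1505 CPM in E5.5, a log2 fold change of 2.27 ± 0.148, edgeR FDR 6.57e-08. Every E5.5 library was above every E4.5-Ant library for CALB1, and without this gene the list summed to 603 and 649 CPM in E4.5-Ant (632) and 803, 815 and 810 CPM in E5.5. WNT9B and ELF3 (1.21 ± 0.114), an epithelial factor, were also on this list, while RET, a receptor for GDNF, had −0.54 and was not called. Whether cells of the Wolffian duct, which runs next to the Müllerian duct, were part of the E5.5 tissue was not tested beyond these values. Early nephron genes gave 1 rise and 4 falls of 16, with 2 falls without library E4.5-Ant 1 or 3 and 1 without E5.5-3 or with all 12 libraries.

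Contractile, vascular and blood genes were lower in sum. Smooth muscle genes summed to 2830.2 and 2438 CPM in E4.5-Ant (3240.3) and 1414, 1352 and 1481 CPM in E5.5, with 8 falls and 2 rises of 13 and a median log2 fold change of −0.83. ACTA2, smooth muscle alpha actin, had 601 and 482 CPM in E4.5-Ant (567) and 196, 181 and 252 CPM in E5.5, a log2 fold change of −1.35 ± 0.108. Endothelial genes summed to 1721 and 1540.5 CPM in E4.5-Ant (1534) and 1240.3, 1127 and 1179.7 CPM in E5.5, and 8 of 19 fell (median −0.58), but 4 fell without library E4.5-Ant 1. TAL1 (−1.08 ± 0.130), ERG (−1.05 ± 0.0884), ESAM (−0.80 ± 0.118) and FLT1 (−0.78 ± 0.0810), the last a VEGF receptor, had the largest falls. Genes of macrophages and other leukocytes summed to 236 and 206 CPM in E4.5-Ant (197) and 132, 113 and 142 CPM in E5.5, and 5 of 12 fell (3 without library E4.5-Ant 1), LCP1 with −1.53 ± 0.0959. Red cell genes summed to 2399 and 2187 CPM in E4.5-Ant (1713) and 984, 636 and 759 CPM in E5.5. HBZ, an embryonic alpha-type globin, had 1399.7 and 1327 CPM in E4.5-Ant (1034) and 453, 249 and 276 CPM in E5.5, a log2 fold change of −2.04 ± 0.184, while HBBA, an adult beta-type globin, rose, with 4.64 and 4.10 CPM in E4.5-Ant (3.10) and 8.22, 25.5 and 45.3 CPM in E5.5, a log2 fold change of 2.60 ± 0.527 (1.98 without library E5.5-3). The 2 globins moved in opposite directions without overlap between the tissues, and the list held 3 rises and 6 falls of 10.

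Markers of other tissues that the dissections could hold are given beside the 7.8% of all genes that rose and the 5.22% that fell. Skeletal muscle genes gave 7 rises and 2 falls of 21 (4 rises without library E4.5-Ant 3), with a median log2 fold change of 0.80. Their summed level overlapped between the tissues, at 209 and 179 CPM in E4.5-Ant (235) and 151, 226 and 144 CPM in E5.5. MYOD1, the myoblast factor, was low, at 0.489 and 0.538 CPM in E4.5-Ant (0.935) and 2.94, 2.09 and 1.80 CPM in E5.5. Its log2 fold change was 2.18 ± 0.402, and that of MYH15 was −2.27 ± 0.233. Sclerotome and cartilage genes gave 2 rises and 6 falls of 17, and 4 rises and 3 falls without library E4.5-Ant 3. Neuronal genes gave 0 calls in either direction of 14, also by voom with limma and DESeq2 under the same limits. Other fits gave calls, 1 rise and 2 falls without library E5.5-1, 1 fall without E5.5-2 and 1 rise without E5.5-3. With all 12 libraries 1 of 12 tested fell. At an unadjusted edgeR p under 0.05, 3 were higher and 2 lower. Neural crest genes gave 1 rise and 3 falls of 15 (5 falls without library E5.5-2), CHGB at −1.03 ± 0.110. Steroid-producing cells gave 1 rise and 2 falls of 10. CYP11A1, the first enzyme of steroid synthesis, fell by 2.94 on the log2 scale (−2.14 without library E4.5-Ant 1), alongside NR5A1. Gonad somatic genes gave 2 rises and 3 falls of 9, LHX9 among the latter, and germ cell genes 1 and 2 of 6, TDRD5 at −2.56 ± 0.196. Gut epithelium genes gave 1 rise and 1 fall of 7. Liver genes gave 2 rises and 2 falls of 15, and ALB, the albumin of hepatocytes, had 0.02 and was not called.

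**Figure D4:**
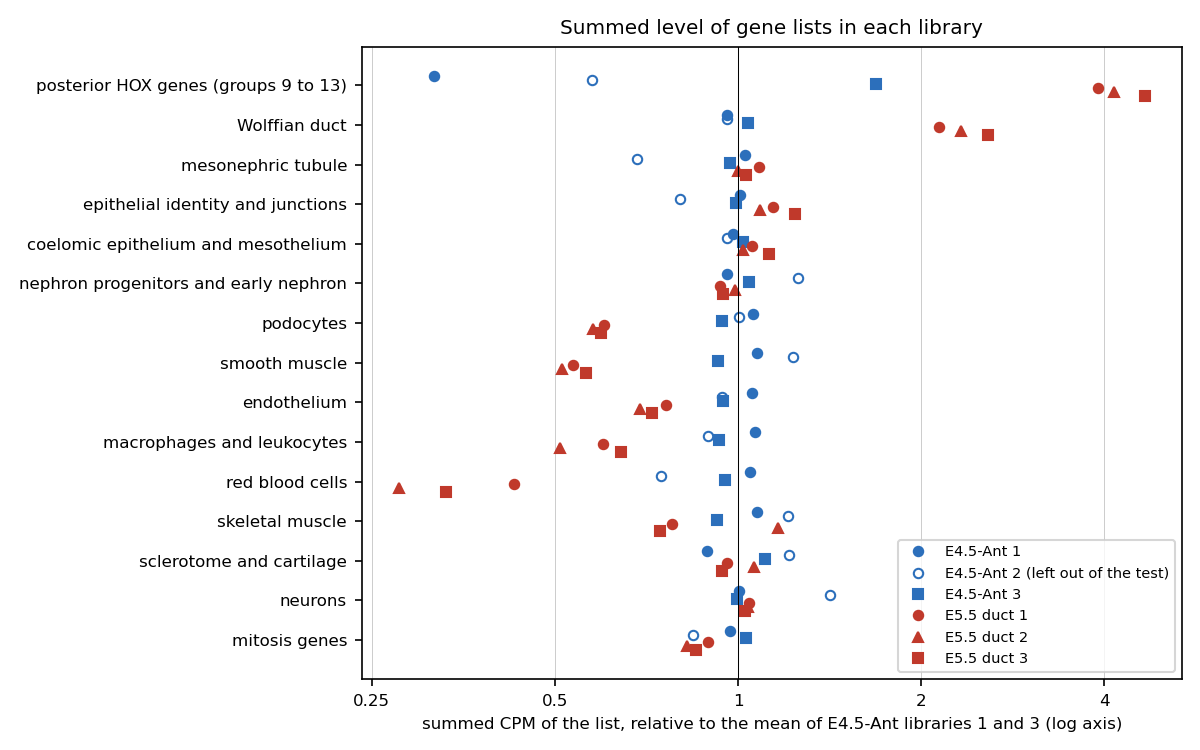
Summed CPM of 15 gene lists in each of the 6 libraries, divided by the mean of E4.5-Ant libraries 1 and 3, on a log axis. Posterior HOX and Wolffian duct genes lie to the right in all 3 E5.5 libraries, red cell, smooth muscle and podocyte genes lie to the left, and tubule and neuronal genes lie near 1 in the E5.5 libraries, while library E4.5-Ant 2 lies below 1 for tubule and above 1 for neuronal genes.

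Genes of growth and housekeeping showed few or no calls. By edgeR's test, none of 31 mitosis, 28 replication, 72 ribosomal protein, 80 nuclear respiratory chain, 13 mitochondrially encoded or 18 cholesterol synthesis genes was called, and their median log2 fold changes were −0.21, −0.12, −0.04, −0.08, 0.45 and −0.30. The mitochondrially encoded genes stood apart in 1 library, summing to 66939 CPM in library E5.5-2 against 34216 to 40942 CPM in E5.5-1, E5.5-3 and E4.5-Ant libraries 1 and 3, and 7 of them were called higher without library E5.5-3. Mitosis genes summed to 4444 and 4726 CPM in E4.5-Ant (3874) and 4101, 3778 and 3917 CPM in E5.5, and 25 of them were lower at an unadjusted edgeR p under 0.05, as were 13 replication, 14 cholesterol synthesis, 7 nuclear respiratory chain and 1 ribosomal protein genes, while 5 mitochondrially encoded genes and 2 of the nuclear respiratory chain were higher. Voom with limma and DESeq2 also called 0 genes of these lists, but under the same limit of 1.5-fold, so smaller changes could be called by none of them. Glycolysis and hypoxia genes gave 1 rise, EGLN3 (0.65 ± 0.119), and 1 fall, VEGFA, and of 19 immediate early and stress genes 1 fell, GADD45B (−0.98 ± 0.137).

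Of 2151 long non-coding RNAs (lncRNAs) tested, 361 changed (16.8%), 264 upwards (12.3%) and 97 downwards (4.51%), beside 12.4% of 14362 coding genes (7.1% upwards and 5.34% downwards). Without library E4.5-Ant 1, 212 changed. The antisense transcript HOXA10-AS (chromosome 2, 32650278 to 32652311, GRCg6a) overlaps HOXA10 on the opposite strand and had 0.140 and 1.90 CPM in E4.5-Ant (0.526) and 7.996, 7.28 and 6.35 CPM in E5.5, a log2 fold change of 2.92 ± 0.443, edgeR FDR 1.87e-04 (1.96 without library E4.5-Ant 1 and 5.66 without library 3). LOC112532984 (chromosome 1, 10664755 to 10695820) had 0.489 and 0.497 CPM in E4.5-Ant (0.877) and 9.63, 12.7 and 20.3 CPM in E5.5, a log2 fold change of 4.86 ± 0.372, edgeR FDR 3.47e-07. It overlaps CACNA2D1 on the opposite strand, which rose by 0.68 on the log2 scale. HGF, which also rose (1.78), is the next coding gene after it at 104.8 kb. PCLO, before it at 447.1 kb, had 0.36 and was not called. LOC107054528 (chromosome 13, 13422533 to 13507977) had 1.26 and 2.24 CPM in E4.5-Ant (1.29) and 15.2, 15.04 and 15.99 CPM in E5.5, a log2 fold change of 3.19 ± 0.267, edgeR FDR 7.37e-07. Its neighbour after it at 23.5 kb, GLRA1, a glycine receptor chain chosen here after its values were seen, had a log2 fold change of 2.83 ± 0.240. NMUR2 lies nearer, before it at 22.7 kb, and has no fold change to give. LOC107053383 (chromosome 5, 11139358 to 11295582) rose by 3.07 on the log2 scale, while its neighbour SOX6, at 64.4 kb, had 0.37 and was not called.

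Downwards, LOC107051956 (chromosome Z, 24831784 to 24840838) had 7.92 and 9.07 CPM in E4.5-Ant (21.5) and 0.512, 0.607 and 0.325 CPM in E5.5, a log2 fold change of −4.09 ± 0.217, edgeR FDR 1.49e-08, and −4.71 with all 12 libraries. LOC107053942 (chromosome 8, 6525955 to 6536101) had 9.67 and 8.45 CPM in E4.5-Ant (5.496) and 1.47, 0.708 and 1.16 CPM in E5.5, a log2 fold change of −2.995 ± 0.270, edgeR FDR 1.42e-06. LOC107054282 (chromosome 11, 7054198 to 7082623) had 7.57 and 6.67 CPM in E4.5-Ant (4.74) and 1.15, 1.45 and 1.30 CPM in E5.5, a log2 fold change of −2.43 ± 0.166, edgeR FDR 1.13e-07, and lies 12.6 kb from CBLN1 on the same strand. The 7 transcripts were chosen for no overlap in the 5 libraries of the fit, so only library E4.5-Ant 2 could still differ. It lay on the E4.5-Ant side for all 7, and 35.9% of all tested genes did not overlap in all 6 libraries. CBLN1, a secreted synapse organiser and one of the genes the study chose on these samples, had 28.7 and 24.3 CPM in E4.5-Ant (21.7) and 3.42, 2.97 and 2.89 CPM in E5.5, a log2 fold change of −3.07 ± 0.144, edgeR FDR 5.92e-09. Counts over whole genes on the stated strand cannot tell a separate lncRNA from unannotated ends of a neighbour on the same strand.

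**Figure D5:**
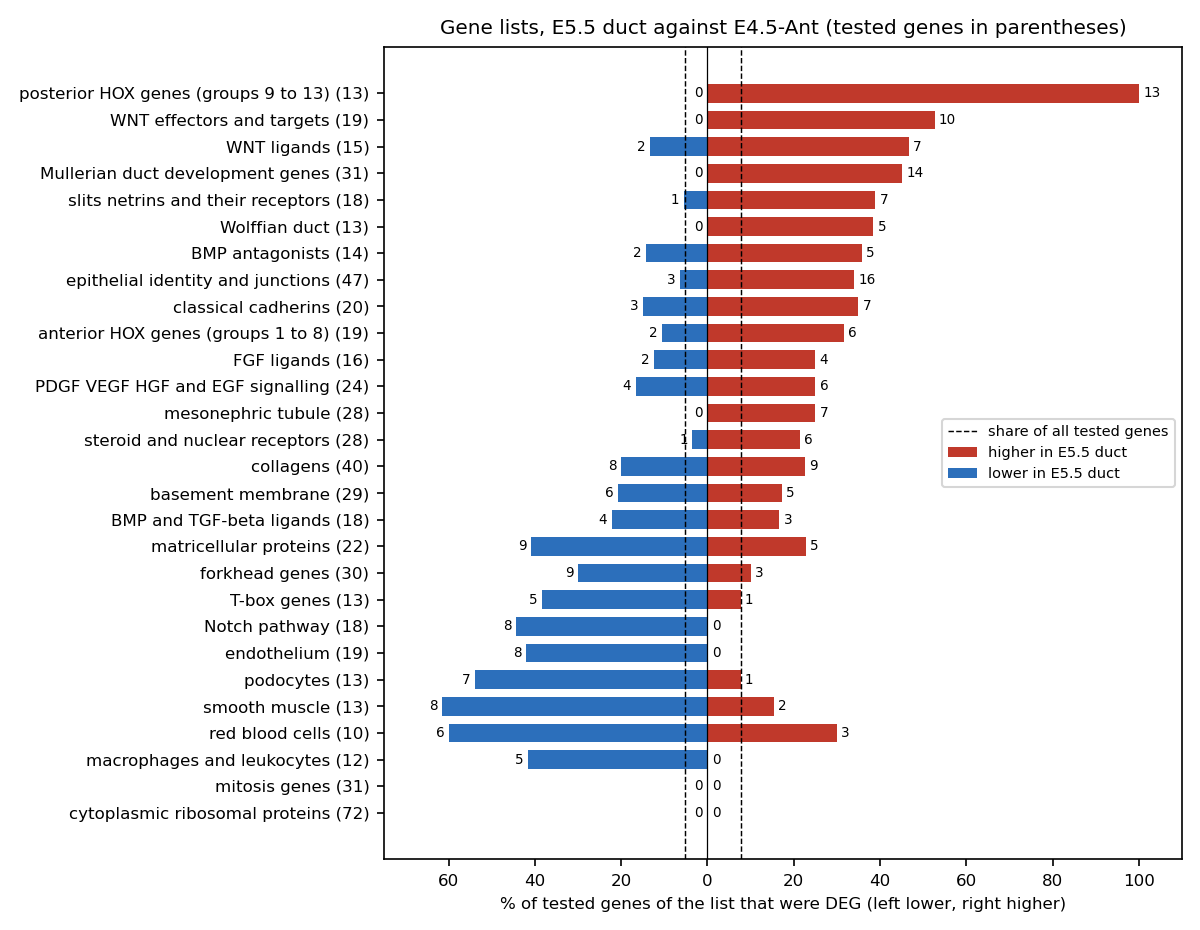
Shares of tested genes that fell (left) and rose (right) in 28 of the lists, in percent, with dashed lines at the shares of all tested genes (5.22% and 7.8%). Posterior HOX genes reach 100% on the right, and podocyte, smooth muscle, red cell, endothelial and Notch lists extend furthest to the left.

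The libraries of each tissue did not stand equally far from the other tissue. Over the 2161 genes that changed, library E5.5-1 was the E5.5 library nearest to the E4.5-Ant mean for 1099 genes (50.9%), library E5.5-2 for 707 (32.7%) and library E5.5-3 for 355 (16.4%). Library E4.5-Ant 3 was nearer than library 1 to the E5.5 mean for 1433 genes (66.3%). In the fits that left out each of the 5 libraries in turn, 1297 of the 2161 genes (60%) were called every time. Counts of 1 or 2 calls in a list often moved by 1 or more in these fits.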

How the data were processed

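RNA of 4 chicken tissues, with 3 libraries each, was prepared with a stranded mRNA kit and sequenced in 1 lane, and the authors aligned it with STAR through RNAsik and counted it with featureCounts 1.6.2 on GRCg6a. Per the file headers, reads were counted over whole genes, introns included, by strand. The deposited unit is the raw count of reads per gene, with no scaling, and the authors tested it with limma and voom. Groups came from column names, and 0 columns had no group.

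Library E4.5-Ant 2 was left out of the main fit, edgeR 4.0.16 (R 4.3.3) with TMM factors, the filterByExpr filter and the quasi-likelihood test on 11 libraries of 4 tissues. Benjamini-Hochberg adjustment ran over all 16603 genes tested, with limits of 0.05 and 1.5-fold. Alternatives used all 12 libraries, other scalings and filters, limma 3.58.1 with voom, DESeq2 1.42.0, and fits without each library. Scripts were tested on simulated counts.

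Members and the 75 gene lists were chosen with earlier results of these data known. Genes named are the 12 largest rises and falls with a mean of at least 5 CPM in the higher tissue, no overlap and a symbol that is no LOC number, 3 lncRNAs each way, the Müllerian genes and up to 4 called genes of a list by size of change, and others where the text says so or where a defining marker was not called, and a few genes that this rule names are not reported here. Chromosome names came from matching symbols to a RefSeq table of GRCg7b, and no sequence is shown. Figures were drawn with matplotlib 3.10.9.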

Additional observations from a re-analysis of the deposited data

How the results depend on the processing

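The counts of genes that changed stayed within 1.5 times the main count of 2161 in all alternatives but the test against the fold limit itself (treat), with 949 genes, 591 higher and 358 lower. Voom with limma gave 2098, DESeq2 1941, all 12 libraries without rRNA genes 2106, only the E5.5 and E4.5-Ant libraries 2009, and scaling by library size alone 2176, of which 55.9% were higher against 59.9%. The 361 lncRNAs became 232 with a minimum of 10 counts in every library and 128 with treat, and coding genes alone gave no lncRNA value. Without 1 library at a time, the ranges were 1602 to 2280 genes, 967 to 1333 higher, 635 to 947 lower and 212 to 379 lncRNAs, and a lone E4.5-Ant library was assumed to vary like the other groups. Correlations of deviations between same and other library numbers ran from −0.0959 to 0.0959. With 2 E4.5-Ant libraries these values mirror each other, so they cannot show whether library numbers pair the samples. With the library number as a replicate block 2095 genes changed, 2004 of them called without it, while 6 of 258 named genes lost their call. The paper's methods read as if both E4.5 tissues came from the same embryos, and pairing between these was not checked. Of 241 called genes on the naming list, 172 were called under every one of 17 alternatives that tested them. PCDH9 rose in the main fit (0.60) and had −0.43 with all 12 libraries and −0.45 without rRNA genes. Depth limits genes near 3 counts a library, for which only bounds are given.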

Other observations

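Of 287 solute carriers tested 23 rose and 15 fell (9 without library E4.5-Ant 1, 10 without E5.5-3), shares of 8.01% and 5.23%, close to the 7.8% and 5.22% of all genes tested, with a median log2 fold change of 0.02. SLC8A3, a sodium and calcium exchanger, had 43.6 and 51.0 CPM in E4.5-Ant libraries 1 and 3 (46.0 in library 2) and 161, 196 and 216 CPM in the E5.5 libraries. SLC28A3, a nucleoside transporter, had 55.2 and 48.9 CPM (42.6 in library 2) and 8.48, 6.57 and 3.83 CPM. Neither overlapped between the tissues, and their log2 fold changes were 2.04 and −3.01 by edgeR's test. Of 76 potassium channel genes 16 rose and 12 fell (21.1% and 15.8%), with KCNS3, a silent subunit that modifies other channels, at 7.47 and 8.61 CPM (7.66 in library 2) and 25.1, 25.4 and 28.7 CPM, a log2 fold change of 1.74. KCND2, a channel of A-type currents, had 1.51, and 0.89 without a call when library E4.5-Ant 2 was included.

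Fold changes moved with the length of the gene. Over 5 classes of coding genes by length, with a median span of 3318 bases in the shortest and 92105 bases in the longest, the median log2 fold change was −0.09 in the shortest and 0.08 in the longest, and 5.08% against 12.6% of genes rose. With all 12 libraries the medians were −0.01 and −0.08 and the shares that rose 5.85% and 8.70%. Against the mean of E4.5-Ant libraries 1 and 3, library E4.5-Ant 2 had a median difference of −0.29 for the shortest genes and 0.26 for the longest on the log2 scale, and the E5.5 libraries had −0.03, −0.19 and −0.08 for the shortest and 0.00, 0.09 and 0.05 for the longest. Among long genes, RUNX2 was at 273 CPM and RARB at 263 CPM in library E4.5-Ant 2, against 23.7 and 22.6 CPM and 96.4 and 106 CPM in libraries 1 and 3. The cause of this pattern was not tested, and the shares given for gene lists were not adjusted for gene length.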
